A study of Mus musculus with 6 samples.

Results

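The 36 genes described here encode the contractile machinery of skeletal muscle fibres and the proteins that feed it with calcium and energy. They form a list of symbols that was drawn up with earlier results of these data known. All 36 were found among 19937 genes that the arrays name singly, and the probe set with the highest mean over the 6 arrays stood for a gene with several, which was the case for Trdn alone (19 probe sets). Of 6 tumours grown in SCID mice, 3 came from hosts with an estradiol (E2) pellet and 3 from hosts with a placebo pellet, implanted together with the injection of MASE2 cells and collected at a loss-of-wellness endpoint with no day given. In both groups the tumours came from the same MASE2 cells, 1 mouse line grown in MOSE medium from ascites of E2-treated tgCAG-LS-TAg mice. In these mice adenoviral Cre (AdCre) given into the ovarian bursa switches on the SV40 large and small T antigens in the ovarian surface epithelium through Cre-LoxP recombination. The SCID host has no mature lymphocytes of the T and B lineages, and keeps its own muscle. Grafted cells and host are both mouse, so the same probes read the RNA of either, and the share of each was not tested. In such bulk samples fewer cells of a type and less RNA per cell cannot be told apart.

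A skeletal muscle fibre contracts when calcium released from the sarcoplasmic reticulum binds troponin on the thin actin filaments and lets the myosin heads of the thick filaments pull on them. Fibres come in fast and slow kinds that use different isoforms of myosin, troponin and calcium handling proteins, and these isoforms serve as markers of fibre kind. Most of these genes are typical of striated muscle and not of epithelium, though some, such as Tpm2, are also made elsewhere.

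As a picture of the control regions these genes share, sequences upstream of the annotated start were taken from RefSeq on GRCm38.p6, which held windows for 28 of the 36 members. Acta1, the skeletal alpha-actin gene, Myh4, the heavy chain of the fastest fibres, and Atp2a1, the calcium pump of fast fibres, are shown because they are among the members whose levels differed most between tumours. Each line gives the 250 bases before the start, 5′ to 3′ on the gene's strand, with matches to 5 searched motifs in capitals. The coordinates are chr8:123894776-123895025 on the minus strand for Acta1, chr11:67237562-67237811 on the plus strand for Myh4 and chr7:126463074-126463323 on the minus strand for Atp2a1.
Acta1: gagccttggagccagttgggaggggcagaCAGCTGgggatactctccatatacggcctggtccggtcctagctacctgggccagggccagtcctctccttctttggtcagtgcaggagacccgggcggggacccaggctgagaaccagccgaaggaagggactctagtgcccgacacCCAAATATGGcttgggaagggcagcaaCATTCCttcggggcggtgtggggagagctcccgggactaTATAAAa
Myh4: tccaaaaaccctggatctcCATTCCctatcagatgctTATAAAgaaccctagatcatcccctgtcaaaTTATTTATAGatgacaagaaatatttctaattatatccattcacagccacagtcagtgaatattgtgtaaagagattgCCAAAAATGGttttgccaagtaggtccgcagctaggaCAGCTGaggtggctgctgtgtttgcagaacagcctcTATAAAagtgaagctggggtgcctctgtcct
Atp2a1: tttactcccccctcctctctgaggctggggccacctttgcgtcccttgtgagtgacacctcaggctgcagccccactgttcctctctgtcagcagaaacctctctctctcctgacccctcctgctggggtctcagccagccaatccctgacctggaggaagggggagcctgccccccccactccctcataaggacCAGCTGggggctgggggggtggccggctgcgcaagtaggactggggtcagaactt
The motifs, searched on both strands, were CAGCTG (an E-box bound by myogenic helix-loop-helix factors), CATTCC (the core of the muscle M-CAT element), TATAAA, the MEF2 site and the CArG box, and matches of different motifs overlapped in 3 windows of members. CAGCTG was present in 15 of the 34 windows of members (13 genes) and in 13.0% of all 32851 windows. The MEF2 site was present in 7 of the 34 against 2.92% of all windows, and the CArG box in 4 against 1.47%. CATTCC was in 8 of the 34 against 12.6% of all windows, and TATAAA in 5 against 12.4%. A match describes letters, not a bound site.

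Values are log2 intensities made with RMA, whose array medians over all probe sets lay between 4.84 and 4.97, and the number of arrays limits their precision. The lower quartile of genes was 4.22 to 4.39 on the 6 arrays. Values below it were not shown to be above background. The array of placebo replicate 3 stood apart, with a Pearson r across genes of 0.857 to 0.865 with every other array, while the highest r of each other array was 0.983 to 0.994. Keratins of simple epithelia were present on all arrays, as Krt8 lay between 7.80 and 8.23 in E2 tumours and between 7.65 and 11.42 in placebo tumours. Krt7 was 5.29 to 5.34 in E2 tumours, against 7.36 to 7.99 in placebo tumours.

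The members were high or low together from tumour to tumour, in both groups. Their mean log2 level was 6.43, 6.04 and 7.81 in E2 replicates 1, 2 and 3, against 5.999, 7.94 and 5.01 in placebo replicates 1, 2 and 3. E2 replicate 3 and placebo replicate 2 thus lay high, E2 replicates 1 and 2 and placebo replicate 1 lay close to each other, and placebo replicate 3 lay lowest. The groups averaged 6.76 ± 0.93 with E2 and 6.32 ± 1.49 with placebo (SD, n = 3 each) and overlapped. E2 replicate 3 was the highest of the E2 tumours for 35 of the 36 members and for 43.4% of all genes. Placebo replicate 2 was the highest placebo tumour for all 36, against 33.8% of all genes. In 33 of the 36 members the E2 tumours had the order 3, 1, 2 and the placebo tumours the order 2, 1, 3, an order that 7.64% of all genes had. The exceptions were Myh8, Myot and Ldb3.

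**Figure D1:**
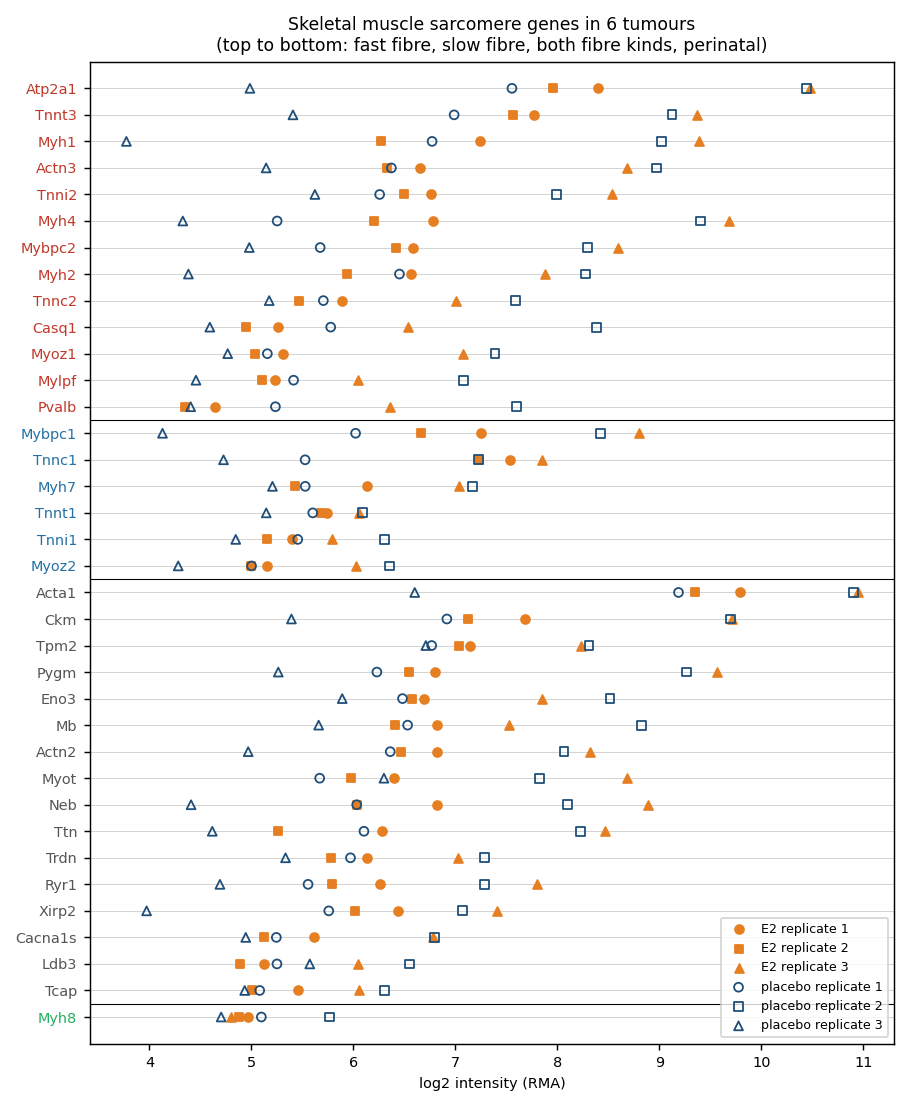
Log2 RMA intensity (x axis) of each member (rows) on each of the 6 arrays, E2 tumours as filled orange and placebo tumours as open blue symbols, with circles, squares and triangles for replicates 1, 2 and 3. E2 replicate 3 and placebo replicate 2 hold the 2 highest values of 34 of the 36 members, and placebo replicate 3 the lowest value of 33.

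Against the rest of the transcriptome these genes were among the most variable within a group. The standard deviation (SD) over the 3 E2 tumours exceeded 1 log2 unit in 27 genes of 19937 (0.135%), and 15 of these 27 were members. Another 4 of the 27 were other skeletal muscle genes listed alongside the members (Nrap, Myom1, Trim63 and Mylk2). The other 8, on neither of these lists, were Cmya5, Reg3g, Pdlim3, Tmem182, Asb2, Txlnb, Reg3b and Fhl1. Of these, Cmya5 and Tmem182 closely followed the members' mean (Pearson r = 0.9735 and 0.9836 over 6 arrays). Reg3g and Reg3b belong to the intestinal epithelial markers given below. All 27 genes were highest in E2 replicate 3. Myh4 had the largest E2 SD of all genes (1.86), and 8 of the 10 largest ranges among E2 tumours belonged to members. The median member lay at the 99.8 percentile of E2 SDs. In the placebo tumours 28 of the 36 members had an SD above 1, as did 3.5% of all genes, and the median member lay at the 98.3 percentile. The SD was larger in the placebo tumours for 35 of the 36 members (71.9% of all genes), Myot being the exception. Much of this rested on placebo replicate 3. The range of the members' mean level among placebo tumours was 2.93 log2 units with that array and 1.94 without it, against 1.77 among E2 tumours.

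**Figure D2:**
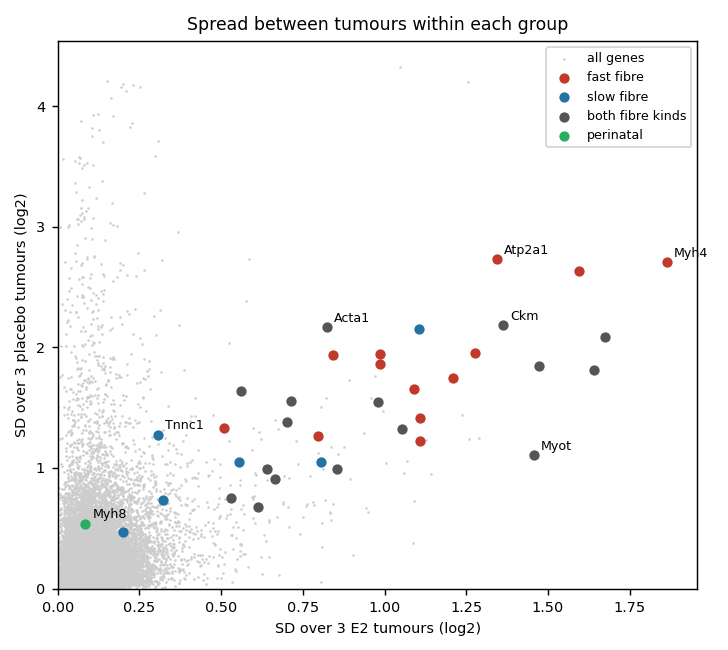
SD over the 3 E2 tumours (x axis, log2 units) against SD over the 3 placebo tumours (y axis, log2 units) for all genes (grey) and for the members by fibre kind (coloured). Myh4 lies farthest right at 1.86, and 15 of the 36 members lie right of 1 on the x axis. Myh8 lies among the bulk of genes on the x axis (0.08, 37.8 percentile) and higher on the y axis (0.54, 87.0 percentile).

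Myosin heavy chains, the motors of the thick filament, ranged from the widest differences among E2 tumours (Myh4, 3.48 log2 units) to the narrowest (Myh8, 0.17). Below, levels of a gene are given for replicates 1, 2 and 3 of each group in that order. Myh4, of the fast IIb fibres, measured 6.78, 6.201 and 9.68 with E2 and 5.25, 9.40 and 4.33 with placebo. It was thus 11.2-fold higher in E2 replicate 3 than in E2 replicate 2, while its values in placebo replicates 1 and 2 differed by 4.15 log2 units. Myh1, of the fast IIx fibres, measured 7.24, 6.27 and 9.39 with E2 and 6.77, 9.02 and 3.77 with placebo. Myh2, of the fast IIa fibres, measured 6.56, 5.94 and 7.87 with E2 and 6.45, 8.28 and 4.38 with placebo. In placebo replicate 3 all 3 fast heavy chains lay below the lower quartile of genes. Myh7, the heavy chain of slow fibres and of the heart, measured 6.13, 5.42 and 7.03 with E2 and 5.53, 7.17 and 5.21 with placebo. Its range within the E2 tumours was 1.61 log2 units and within the placebo tumours 1.96. Myh8, the perinatal heavy chain, measured 4.96, 4.88 and 4.80 with E2 and 5.10, 5.77 and 4.70 with placebo. Its E2 tumours stayed within 0.17 log2 units of each other, and placebo replicate 2 was its highest array. Myh1, Myh2, Myh4 and Myh8 lie on chromosome 11 and are close copies of one another, so their probes may share sequence and their separate values are uncertain.

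The other proteins of the thick filament followed. Mybpc2, the fast isoform of myosin-binding protein C, measured 6.59, 6.42 and 8.59 with E2 and 5.67, 8.30 and 4.98 with placebo. Mybpc1, the slow isoform, measured 7.25, 6.67 and 8.80 with E2 and 6.02, 8.42 and 4.13 with placebo. Ttn, which encodes titin, the spring that runs from the Z-disc to the middle of the sarcomere, measured 6.28, 5.26 and 8.47 with E2 and 6.10, 8.23 and 4.62 with placebo. All 3 were highest in E2 replicate 3, next in placebo replicate 2, and lowest in placebo replicate 3. Mylpf, the regulatory light chain of fast myosin, measured 5.23, 5.11 and 6.04 with E2 and 5.41, 7.08 and 4.46 with placebo, with placebo replicate 2 about 1.04 log2 units above E2 replicate 3.

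On the thin filament, Acta1, the skeletal alpha-actin, measured 9.79, 9.35 and 10.95 with E2 and 9.19, 10.91 and 6.60 with placebo. E2 replicate 3 and placebo replicate 2 differed by 0.04 log2 units, and placebo replicate 3 lay 4.30 log2 units below placebo replicate 2. Neb, which encodes nebulin, the ruler along the actin filament, measured 6.82, 6.04 and 8.88 with E2 and 6.03, 8.10 and 4.41 with placebo. The fast troponins, which make the filament sensitive to calcium, had the same order of tumours. Tnnt3 (troponin T) measured 7.77, 7.57 and 9.37 with E2 and 6.99, 9.12 and 5.41 with placebo. Tnni2 (troponin I) measured 6.76, 6.49 and 8.53 with E2 and 6.26, 7.99 and 5.62 with placebo. Tnnc2 (troponin C) measured 5.88, 5.46 and 7.01 with E2 and 5.71, 7.59 and 5.17 with placebo. Placebo replicate 2 was above E2 replicate 3 for Tnnc2 and below it for Tnnt3 and Tnni2. Among E2 tumours the slow troponins had ranges of 0.38 to 0.64 log2 units and the fast troponins of 1.54 to 2.04. Among placebo tumours the ranges overlapped, with 0.94 to 2.496 for the slow and 2.37 to 3.72 for the fast troponins. Tnnt1 ranged from 5.68 to 6.06 with E2 and from 5.14 to 6.09 with placebo, and Tnni1 from 5.15 to 5.79 with E2 and from 4.85 to 6.30 with placebo. Tnnc1, the troponin C of slow fibres and of the heart, measured 7.54, 7.23 and 7.85 with E2 and 5.53, 7.22 and 4.73 with placebo. It was high in all 3 E2 tumours and in placebo replicate 2, and lower in placebo replicates 1 and 3. Tpm2, beta-tropomyosin, which smooth muscle also makes, ranged from 7.03 to 8.23 with E2 and from 6.71 to 8.31 with placebo.

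At the Z-disc, where actin filaments of neighbouring sarcomeres are anchored, Actn3, the alpha-actinin of fast fibres, measured 6.66, 6.33 and 8.69 with E2 and 6.37, 8.97 and 5.14 with placebo. Actn2, the alpha-actinin of all fibres and of the heart, measured 6.82, 6.47 and 8.32 with E2 and 6.36, 8.07 and 4.97 with placebo. Xirp2, an actin-binding protein of the fibre's attachment sites, measured 6.44, 6.02 and 7.41 with E2 and 5.76, 7.07 and 3.97 with placebo. Each had the shared order of tumours. Myoz1, a calcineurin-binding Z-disc protein of fast fibres, measured 5.31, 5.03 and 7.07 with E2 and 5.16, 7.39 and 4.77 with placebo. Myoz2, its counterpart in slow fibres and heart, measured 5.15, 4.995 and 6.02 with E2 and 5.001, 6.35 and 4.28 with placebo. Myot, which encodes myotilin, measured 6.39, 5.98 and 8.69 with E2 and 5.67, 7.82 and 6.30 with placebo, and here placebo replicate 3 lay above placebo replicate 1. The same was true of Ldb3, a PDZ protein that binds alpha-actinin, which ranged from 4.89 to 6.05 with E2 and from 5.25 to 6.55 with placebo. Tcap, the titin cap, ranged from 5.003 to 6.06 with E2 and from 4.93 to 6.31 with placebo.

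Genes of calcium release and uptake varied as widely. Atp2a1, the calcium pump of the fast-fibre sarcoplasmic reticulum, measured 8.40, 7.96 and 10.47 with E2 and 7.55, 10.44 and 4.99 with placebo. It differed by 0.03 log2 units between E2 replicate 3 and placebo replicate 2, and placebo replicate 3 lay 43.9-fold below placebo replicate 2. Ryr1, the calcium release channel, measured 6.27, 5.79 and 7.80 with E2 and 5.56, 7.29 and 4.69 with placebo. Cacna1s, its voltage sensor, ranged from 5.12 to 6.78 with E2 and from 4.94 to 6.79 with placebo. Trdn, which encodes triadin of the same complex, ranged from 5.78 to 7.03 with E2 and from 5.33 to 7.29 with placebo. Its 19 probe sets differed in range. The one with the next highest mean ranged from 5.75 to 7.54 with E2 and from 4.24 to 7.47 with placebo. The dimmest (mean 2.81) ranged only from 2.64 to 2.82 with placebo. Casq1, the calcium store protein calsequestrin of fast fibres, measured 5.26, 4.94 and 6.53 with E2 and 5.78, 8.38 and 4.59 with placebo. Pvalb, parvalbumin, the soluble calcium buffer of fast mouse fibres, measured 4.64, 4.35 and 6.36 with E2 and 5.24, 7.60 and 4.40 with placebo. Both were more than 1 log2 unit higher in placebo replicate 2 than in E2 replicate 3.

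Among the genes of energy and oxygen supply, Ckm, the muscle creatine kinase, measured 7.68, 7.12 and 9.71 with E2 and 6.92, 9.70 and 5.39 with placebo. Its values in E2 replicate 3 and placebo replicate 2 differed by 0.01 log2 units, and of all members it followed the mean of the others most closely (Pearson r = 0.998 over 6 arrays). Pygm, the muscle glycogen phosphorylase, measured 6.80, 6.55 and 9.57 with E2 and 6.23, 9.26 and 5.26 with placebo. Eno3, the muscle enolase, measured 6.69, 6.58 and 7.85 with E2 and 6.48, 8.52 and 5.89 with placebo. Mb, which encodes the oxygen carrier myoglobin, measured 6.82, 6.41 and 7.52 with E2 and 6.53, 8.83 and 5.66 with placebo. Pygm was the higher in E2 replicate 3, and Eno3 and Mb in placebo replicate 2. Over all members, r with the mean of the other 35 was lowest for Myh8 (0.581), Ldb3 (0.706) and Tnnc1 (0.757), as a description in which arrays are shared by all genes.

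By fibre kind, the 13 fast-fibre members swung more between tumours than the 6 slow-fibre members. The median range within the E2 tumours was 2.04 log2 units for fast members, 1.63 for the 16 members of both kinds and 0.83 for slow members, against 0.20 for all genes. Within the placebo tumours it was 3.72, 2.86 and 2.02, against 0.34 for all genes. Leaving placebo replicate 3 aside, placebo replicate 2 exceeded placebo replicate 1 by a median of 2.25 log2 units in fast and 1.498 in slow members. Relative to each gene's mean over the 6 arrays, fast members had medians of -0.18, -0.67 and 1.59 in E2 replicates 1, 2 and 3, and of -0.63, 1.70 and -1.78 in placebo replicates 1, 2 and 3. Slow members had 0.04, -0.26 and 0.84 with E2 and -0.43, 0.93 and -0.95 with placebo. The 2 kinds therefore moved in the same tumours and differed in the size of the swing. RMA compresses changes near background, so the smaller swings of dim probe sets are understated, and the difference between the kinds was not tested. Mybpc1 and Tnnc1 among the slow members had placebo ranges of 4.29 and 2.496, and Tnnt1 had 0.94. In placebo replicate 3, 6 members lay below the lower quartile of genes. These were Mybpc1 (4.13), Myoz2 (4.28), Xirp2 (3.97) and the 3 fast heavy chains. The low ends of their placebo ranges were thus not shown to be above background.

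**Figure D3:**
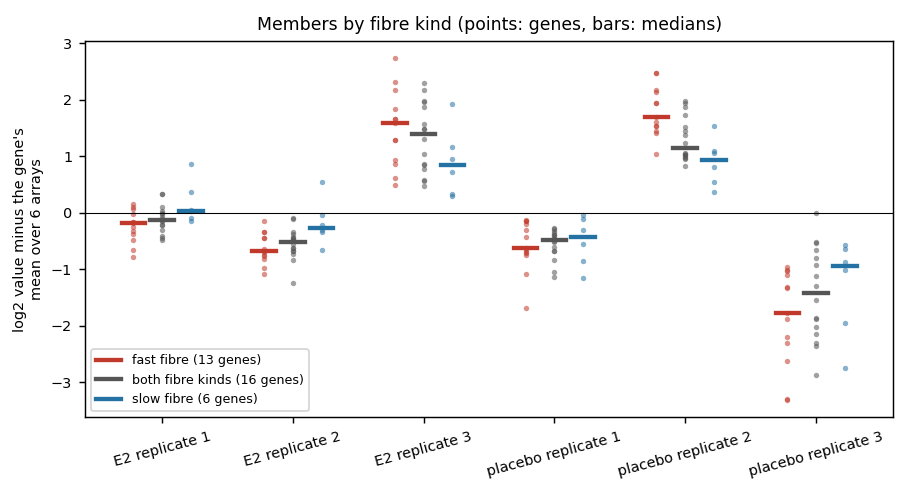
Log2 value of each member minus its own mean over the 6 arrays (y axis), by array (x axis) and fibre kind, without Myh8 (points are genes, bars medians). E2 replicate 3 and placebo replicate 2 lie above 0 for fast members (medians 1.59 and 1.70) and for slow members (0.84 and 0.93), and the medians of placebo replicate 3 lie below 0 for both.

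The 2 tumours with the highest muscle levels, E2 replicate 3 and placebo replicate 2, were alike over the members as a set. Of the 36 members 17 (47.2%) were higher in E2 replicate 3, against 49.9% of all genes, and 19 in placebo replicate 2. The median difference was -0.02 log2 units, against -0.001 for all genes. Single genes differed in either direction. E2 replicate 3 was higher in 6 of 13 fast members, 2 of 6 slow members and 9 of 16 members of both kinds. The members furthest below placebo replicate 2 were Casq1 (difference -1.85), Mb (-1.30), Pvalb (-1.24) and Mylpf (-1.04). The members furthest above it were Myot (0.86), Neb (0.79), Tnnc1 (0.63) and Tnni2 (0.54). Outside the members, Trim63, a muscle ubiquitin ligase known to rise in wasting muscle, measured 5.95, 5.49 and 7.56 with E2 and 4.85, 5.38 and 4.66 with placebo. Ankrd2, a stretch-responsive protein, measured 6.40, 6.204 and 7.61 with E2 and 5.61, 6.34 and 4.94 with placebo. Ampd1, the muscle AMP deaminase, measured 5.04, 4.78 and 6.28 with E2 and 5.23, 7.42 and 4.54 with placebo, and Pgam2, the muscle phosphoglycerate mutase, measured 5.75, 5.52 and 6.52 with E2 and 5.72, 7.72 and 5.498 with placebo. Trim63 and Ankrd2 were thus more than 1 log2 unit higher in E2 replicate 3, and Ampd1 and Pgam2 more than 1 log2 unit higher in placebo replicate 2. These 4 were picked after their values were seen, and they are not all the listed skeletal muscle genes with such a difference. Lmod2 was also higher in E2 replicate 3 (difference 1.10). Mss51 (-1.22), Ckmt2 (-1.14) and Myl2 (-1.01) were also higher in placebo replicate 2. Each tumour has 1 array, so these differences have no replicate check. The 2 tumours also come from different groups, and the part of the groups in these differences was not tested. For Trim63 every E2 tumour lay above every placebo tumour, and Ankrd2 was higher in E2 replicate 1 (6.40) than in placebo replicate 2 (6.34).

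No member differed between the groups beyond the spread between tumours. The comparison asks whether E2 pellets changed these genes, and with limma (Benjamini-Hochberg adjustment over all 19937 genes) 0 of 36 members passed an adjusted p of 0.05, against 1.38% of all genes. By direction these were 0 of 36 members higher with E2, against 1.06% of all genes, and 0 of 36 lower, against 0.326%. At an unadjusted p under 0.05 it was 1 of 36, against 16.5% of all genes, and 0 members passed with a trended, robust variance (1.39% of all genes) or with array weights (8.96%). The median change over the members was 0.37 log2, E2 minus placebo, against -0.01 for all genes, and 28 of 36 changes were above 0. That direction rested on single arrays. Without placebo replicate 3 the median was -0.17 log2 with 10 of 36 above 0, and without E2 replicate 3 it was -0.18 with 15 of 36. In these fits 0 members passed, against 11.6% of all genes without placebo replicate 3 and 0.221% without E2 replicate 3. Without placebo replicate 2 the median was 1.17 log2, and with array weights it was -0.19 with 13 of 36 above 0.

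Acta1 averaged 10.03 ± 0.82 with E2 and 8.90 ± 2.17 with placebo (SD, n = 3 each), a difference of 1.13 log2 (SE 1.09, 95% interval -1.53 to 3.79, limma adjusted p = 0.628). Ckm averaged 8.17 ± 1.36 with E2 and 7.34 ± 2.18 with placebo, a difference of 0.84 log2 (SE 1.21, interval -2.12 to 3.79, limma adjusted p = 0.755). Both intervals hold changes of several-fold in either direction. Atp2a1 differed by 1.28 log2 (interval -2.21 to 4.77), Mybpc1 by 1.38 (-1.39 to 4.16) and Myh4 by 1.23 (-2.54 to 4.99), all 3 with overlapping groups. Casq1 had the lowest difference of the members, -0.67 log2 (-3.10 to 1.76).

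Tnnc1 was the one member whose groups did not overlap. It averaged 7.54 ± 0.31 with E2 and 5.82 ± 1.27 with placebo (SD, n = 3 each), 1.72 log2 higher with E2 (SE 0.62, interval 0.20 to 3.23), with an unadjusted limma p of 0.0321 and an adjusted p of 0.253, above the threshold. An exact two-sided permutation test gave p = 0.10, the smallest that 3 against 3 allows. The lowest E2 value, 7.23, and the highest placebo value, 7.22, differed by less than the spread of either group. Of all genes 14.9% had every E2 array above every placebo array and 11.4% had every E2 array below, so 1 of 36 members is below that background. Without placebo replicate 2 Tnnc1 passed (change 2.41 log2, limma adjusted p = 0.0465), so that 1 of 36 members passed, against 1.02% of all genes. It passed at this threshold in none of the other fits run, and no other member passed in any of them. Without placebo replicate 3 its change was 1.17 (limma adjusted p = 0.134), and Myh8 then had every E2 array below both placebo arrays (change -0.55, limma adjusted p = 0.0983), with 21.2% of all genes apart upward and 20.4% downward.

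**Figure D4:**
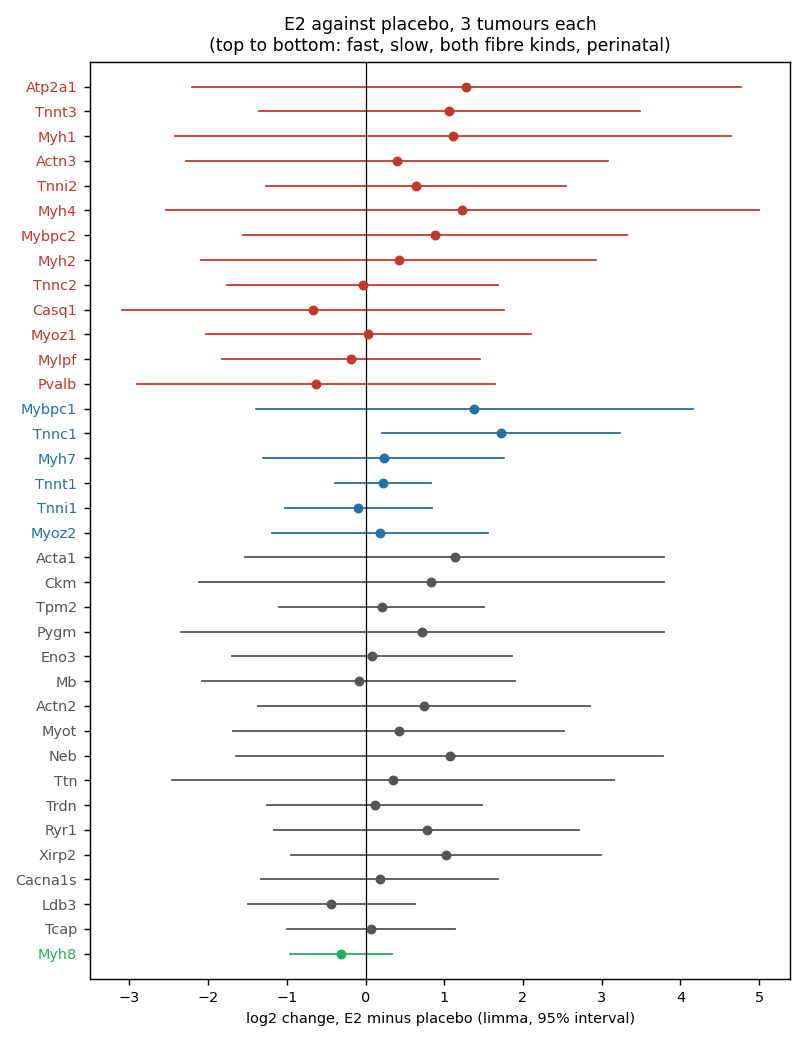
Log2 change, E2 minus placebo (x axis), of each member (rows) from limma, with points for the estimate and lines for the 95% interval, coloured by fibre kind. The intervals of 35 of the 36 members span 0, and that of Tnnc1 runs from 0.20 to 3.23.

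The other genes of skeletal muscle, from a list of 57 of which 53 were measured, gave the same picture. With limma 0 of 53 passed in either direction on all 6 arrays, against 1.38% of all genes. An unadjusted p under 0.05 was found for 2 (Klhl40 and Trim63), against 16.5% of all genes. For the same 2 of 53 every E2 array lay above every placebo array, against 14.9% of all genes. For 1 of 53 (Clcn1) every E2 array lay below, against 11.4%. Without placebo replicate 3, 1 of 53 passed, a smaller share than the 11.6% of all genes. This was Cox7a1, a respiratory chain subunit that also occurs outside muscle, which was higher with E2 (0.58 log2, limma adjusted p = 0.0126). Its levels did not follow the members (r = -0.361 over 6 arrays). E2 replicate 3 and placebo replicate 2 held the 2 highest values of 42 of the 53, against 6.9% of all genes. The largest ranges belonged to Ankrd23, a titin-associated protein, with 7.30, 6.78 and 8.52 with E2 and 6.13, 8.33 and 4.91 with placebo, Myl1, the essential light chain of fast myosin, with 6.08, 5.52 and 7.41 with E2 and 6.15, 8.24 and 4.73 with placebo, and Klhl41, a sarcomere assembly protein, with 6.25, 5.999 and 7.83 with E2 and 5.32, 7.32 and 4.45 with placebo. Among the 10 genes outside the members with the highest Pearson r with their mean over the 6 arrays (0.972 to 0.988, of 3857 genes with a range of at least 1 log2 unit) were Mlip, Srl, Pfkm, Hspb6, Tmem182, Ppp1r3a, Myom2, Cmya5, Clip1 and Art1, 3 of which (Pfkm, Myom2 and Art1) were on that list. Srl, which encodes sarcalumenin of the sarcoplasmic reticulum, measured 5.85, 5.30 and 6.98 with E2 and 5.68, 6.94 and 4.72 with placebo.

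Genes that specify muscle identity were a mixed group. Of 12 measured myogenic regulators, Myf6, the regulator kept in mature fibres, had the largest range and measured 6.25, 5.59 and 7.33 with E2 and 4.73, 6.55 and 4.35 with placebo, highest in E2 replicate 3. Myod1 measured 5.16, 4.86 and 5.17 with E2 and 4.97, 6.03 and 4.92 with placebo, highest in placebo replicate 2, and Mef2c ranged from 5.29 to 6.12 with E2 and from 5.04 to 6.96 with placebo. E2 replicate 3 and placebo replicate 2 were each the highest of their group for 5 of the 12 regulators, against 16.8% of all genes, 48 of the 53 other skeletal muscle genes and 35 of the 36 members.

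Markers of other tissues were read on the same arrays. The mean of 14 cardiac markers was 5.36, 5.22 and 5.34 in E2 replicates 1, 2 and 3, against 5.03, 5.34 and 5.19 in placebo replicates 1, 2 and 3. For 4 of the 14, E2 replicate 3 and placebo replicate 2 were each the highest of their group. Myl7, an atrial light chain, measured 8.86, 8.89 and 9.03 with E2 and 5.28, 5.39 and 5.96 with placebo, high in all 3 E2 tumours whatever their sarcomere levels. Myl2, the ventricular light chain that slow skeletal fibres also use, measured 4.93, 4.62 and 5.32 with E2 and 4.87, 6.33 and 4.56 with placebo, and Pln, phospholamban, 3.75, 3.69 and 3.86 with E2 and 4.09, 4.12 and 5.06 with placebo. The 12 smooth muscle markers averaged 5.76, 5.70 and 5.97 with E2 and 5.66, 6.05 and 7.07 with placebo, and 10 of the 12 were highest in placebo replicate 3. Myh11, the smooth muscle heavy chain, measured 5.16, 4.78 and 5.29 with E2 and 5.28, 5.55 and 8.70 with placebo, and Actg2, the enteric smooth muscle actin, 4.58, 4.53 and 4.57 with E2 and 4.63, 4.92 and 8.43 with placebo. Desmin (Des), common to smooth and striated muscle, measured 7.16, 6.91 and 8.51 with E2 and 6.14, 8.04 and 7.51 with placebo, and was high in E2 replicate 3, placebo replicate 2 and placebo replicate 3. All 14 intestinal epithelial markers were highest in placebo replicate 3, with a mean of 10.02 there, against 4.25 to 4.63 in E2 tumours and 4.36 and 4.47 in placebo replicates 1 and 2. The tumour with the lowest sarcomere levels was thus the one with the highest intestinal and smooth muscle levels, and the part of this in the members' low values there was not tested. Of the intestinal markers, Reg3g and Reg3b, secreted antibacterial lectins, were also high in E2 replicate 3 compared with the other E2 tumours. Reg3g measured 4.51, 3.56 and 6.05 with E2 and 4.48, 5.22 and 12.10 with placebo, Reg3b 4.35, 3.82 and 5.84 with E2 and 4.44, 4.89 and 12.15 with placebo, and Zg16, a goblet cell lectin, 4.25, 4.36 and 4.73 with E2 and 4.09, 4.35 and 11.42 with placebo.

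**Figure D5:**
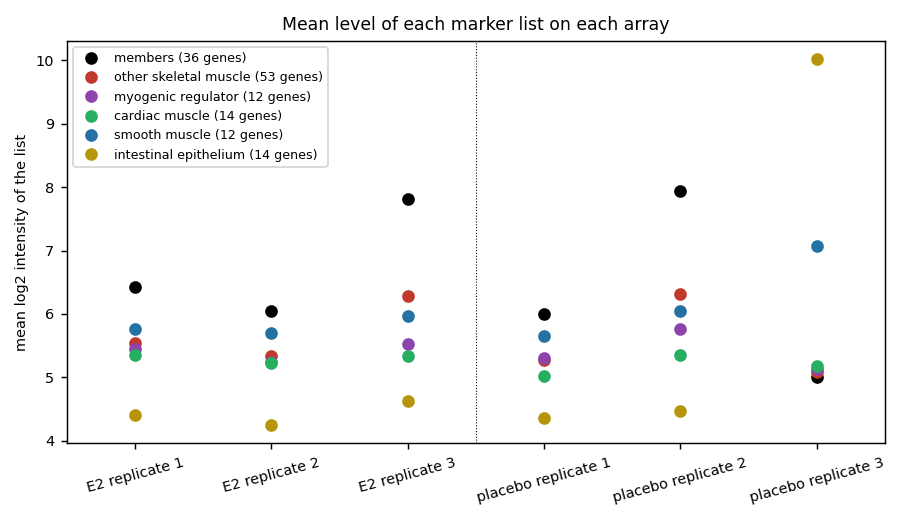
Mean log2 intensity of each marker list (y axis) on each array (x axis), E2 tumours left of the dotted line and placebo tumours right of it. Members and other skeletal muscle genes are highest in E2 replicate 3 and placebo replicate 2, whereas intestinal (10.02) and smooth muscle (7.07) markers are highest in placebo replicate 3.

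Within each group the remaining lists showed smaller differences in mean level than the members. Adipocyte markers (11 measured) averaged 5.26 to 5.40 with E2 and 5.54 to 5.87 with placebo, fibroblast and pericyte markers (9) 7.53 to 7.98 with E2 and 7.97 to 8.47 with placebo, and endothelial markers (8) 5.06 to 5.38 with E2 and 5.63 to 5.76 with placebo. In all 3 of these lists the mean was highest in E2 replicate 3 and placebo replicate 2 within their groups. These tumours exceeded the lowest of their group by 0.14 and 0.33 log2 units in the adipocyte list, by 0.45 and 0.50 in the fibroblast and pericyte list, and by 0.31 and 0.13 in the endothelial list. The part of these cells in the sarcomere differences was not tested. Exocrine pancreas markers (6) stayed between 4.54 and 4.59 with E2 and between 4.49 and 4.59 with placebo.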

How the data were processed

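Tumour RNA from 6 mice was read on 6 Affymetrix arrays, 1 per tumour, in 2 groups of 3 that the study calls biological replicates. The authors deposited log2 intensities for 34760 probe sets. The submitters' processing notes name RMA for them, with no software or version. The method subtracts background and forces equal distributions on all arrays, which compresses changes near background. Platform annotation named exactly 1 gene for 21640 probe sets, several for 1321 and none for 11799. The probe set with the highest mean stood for each of 19937 genes, and no column was left unmapped. E2 was compared with placebo by limma 3.58.1 in R 4.3.3 over all genes with Benjamini-Hochberg adjustment, tested first on simulated data, and by exact two-sided permutation for Tnnc1, Acta1 and Ckm. Levels, ranges and motifs were computed in Python 3.11.15 with pandas 2.3.3. Alternatives were a replicate block, filters on dim genes, the mean of probe sets, repeated normalization, array centring, variance settings, array weights, thresholds and each array left out. The members and all marker lists were chosen with earlier results of these data known. Named were all members, with values on every array for those whose SD within a group exceeded 1 log2 unit, from each other list the 3 genes with the largest range, and the 10 genes with the highest correlation with the members' mean. Fibre kinds follow textbook isoform assignments.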

Additional observations from a re-analysis of the deposited data

How the results depend on the processing

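The number of members called was 0 of 36 on all 6 arrays and under every alternative tried, with these exceptions. It was 0 to 1 with each array left out. At an unadjusted p under 0.05 with at least a 1.5-fold change it was 1 of 36, against 1224 of all 19937 genes. With placebo replicate 3 left out as well and that unadjusted threshold, a combination chosen after seeing the data, it was also 1. The share of all genes was not computed for that combination. Without placebo replicate 3, 2 members had groups that did not overlap, 1 upward and 1 downward. Of all genes 21.2% were then apart upward and 20.4% downward, so the members lay below that background. The other skeletal muscle genes gave 0 to 1 with each array left out and 1 at the unadjusted threshold. The count over all genes was less stable. It was 276 with all arrays, 31 to 2315 with each array left out (2315 without placebo replicate 3), 10 with a replicate block, 422 with each array centred on its median, 1786 with array weights, 736 at an adjusted p under 0.10, and 1224 at the unadjusted threshold with a 1.5-fold change. Same-numbered tumours did not vary together (r of their deviations -0.0287, -0.182 and -0.13). With 3 arrays in a group this cannot decide whether the numbers pair samples, and the main fit assumed no pairing. With the replicate block 0 members passed. With each array left out, the range of the members' mean level was 0.39 to 1.77 log2 units among E2 tumours, lowest without E2 replicate 3, and 0.99 to 2.93 among placebo tumours, lowest without placebo replicate 2. With the other alternatives these ranges were 1.62 to 1.85 and 2.84 to 3.04. Changes of single members turned sign. With each array left out, Acta1 had -0.018 to 2.13 log2, Atp2a1 -0.056 to 2.67, Ckm -0.14 to 2.02 and Casq1 -1.50 to 0.40, with the turned signs of the first 3 without placebo replicate 3 and of Casq1 without placebo replicate 2. With array weights Ckm had -0.14. Of the 34 members tested in all 14 alternatives 10 kept their sign. Myh8, which a filter at the median signal removed, kept its sign in the others, and 25 of the 36 members changed sign in at least 1. The cause was not tested.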

Other observations

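The remaining genes picked from the marker lists by the size of their range had the following levels, for replicates 1, 2 and 3 of each group. Lpl, lipoprotein lipase, measured 8.60, 8.79 and 8.87 with E2 and 8.08, 8.36 and 6.46 with placebo, and was lowest in placebo replicate 3. Fabp4, a fatty acid carrier of adipocytes, measured 5.21, 5.23 and 5.27 with E2 and 6.13, 6.82 and 6.17 with placebo, with every E2 tumour below every placebo tumour. Cidec, a lipid droplet protein, measured 4.99, 4.72 and 4.76 with E2 and 5.31, 5.74 and 6.66 with placebo.

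Among stromal genes, Col3a1, a fibrillar collagen, measured 8.27, 7.71 and 8.45 with E2 and 9.36, 9.96 and 9.31 with placebo. Lum, lumican, measured 5.59, 4.84 and 5.93 with E2 and 6.65, 7.05 and 6.33 with placebo, and Rgs5, a pericyte marker, 6.12, 5.41 and 6.40 with E2 and 7.26, 6.90 and 7.50 with placebo. Cdh5, the endothelial cadherin, measured 5.66, 5.19 and 5.71 with E2 and 6.19, 6.24 and 6.03 with placebo, Esam 5.52, 5.30 and 5.65 with E2 and 6.27, 6.54 and 5.79 with placebo and Tek 4.66, 4.50 and 4.81 with E2 and 5.10, 5.23 and 5.65 with placebo. Over the whole lists, every E2 tumour lay below every placebo tumour for 7 of 8 endothelial, 7 of 11 adipocyte and 3 of 9 fibroblast and pericyte markers, against 11.4% of all genes. Every E2 tumour lay above every placebo tumour for 0 of 8, 1 of 11 and 1 of 9, against 14.9% of all genes. These lists were not tested. Of the exocrine pancreas enzymes, Ctrb1 measured 5.20, 4.96 and 5.21 with E2 and 4.58, 5.01 and 4.99 with placebo, Cpa1 4.31, 4.34 and 4.13 with E2 and 4.32, 4.33 and 4.45 with placebo and Cel 3.75, 3.93 and 3.88 with E2 and 3.92, 4.03 and 3.77 with placebo, with ranges of under 1 log2 unit over the 6 tumours.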
